A study of Saccharomyces cerevisiae BY4741 with 12 samples.

Results

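The antisense transcripts described here are the short ones of a budding yeast list, those whose assembled width was 650 bp or less. They numbered 192 of the 777 antisense transcripts listed as higher in cells without SET2, and they lay opposite 185 of the 687 sense genes of the list. Their width ran from 207 to 648 bp with a median of 536.5 bp, against 365 listed transcripts of over 650 and under 1200 bp and 220 of 1200 bp or more. RNA came from 4 strains of the Saccharomyces cerevisiae BY4741 background: the WT, the set2Δ strain with the empty plasmid pRS415, and set2Δ with pRS415 carrying either set2-Y149F or set2-Y236F. All 3 mutant strains thus lacked the chromosomal gene and carried the plasmid, and no plasmid is stated for the WT. Cells grew at 30 °C from an OD600 of 0.2 to 0.8 in YPD or SD medium, which the sources do not assign to strains. Polyadenylated RNA was read in 75-base single-end, strand-specific libraries, 3 listed per strain and 12 in all, and each deposited strain mean proved to be that of 2 libraries.

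Set2 is the methyltransferase that places 1, 2 or 3 methyl groups on lysine 36 of histone H3 (H3K36) behind elongating RNA polymerase II. These marks recruit the Rpd3S deacetylase complex and restrain histone exchange over coding regions, and without SET2 transcription is known to start at cryptic sites inside genes, in the sense and in the antisense direction. Phe/Tyr switch mutations change a residue at the lysine channel of a SET domain and so alter which methylation states the enzyme produces. In this study set2-Y149F was the strain that lost the dimethyl mark and kept the trimethyl mark, and set2-Y236F was the strain that lost the trimethyl mark and kept the lower states.

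All 192 transcripts lay on the strand opposite their sense gene, 102 on the plus and 90 on the minus strand of the genome (build sacCer3). Chromosome IV held 27, chromosome XVI 21 and chromosome XV 20, down to 3 on chromosome I. The ends of the assembled transcripts set what a short member is, and 2 kinds of end are shown here in sequence. In the first, the short transcript ended or began a few bases from another listed transcript on the same strand. Of those shown, it ended at the gap for PLB2 and began there for GAS5, MSA1 and CLB6. For APP1, CIR2 and RIF1 the pieces on both sides were short members. The lines below run 5′ to 3′ on the antisense strand, with the bases that separate both transcripts in capitals and 20 bases of each transcript around them. They come from chrXIV:447754-447799 (minus), chrXV:268636-268682 (minus), chrXIII:278080-278127 (plus), chrXV:1008024-1008072 (minus), chrXV:450324-450373 (minus), chrII:753034-753084 (plus) and chrVII:706086-706145 (plus).
APP1: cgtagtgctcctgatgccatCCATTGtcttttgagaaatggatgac
GAS5: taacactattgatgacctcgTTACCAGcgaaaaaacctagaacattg
PLB2: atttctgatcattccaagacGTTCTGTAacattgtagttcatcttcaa
CIR2: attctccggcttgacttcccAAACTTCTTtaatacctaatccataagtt
MSA1: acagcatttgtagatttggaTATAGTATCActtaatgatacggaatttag
RIF1: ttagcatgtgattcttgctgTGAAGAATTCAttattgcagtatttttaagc
CLB6: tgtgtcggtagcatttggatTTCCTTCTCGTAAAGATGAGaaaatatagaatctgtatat

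In the other kind, the short transcript began just past the end of an annotated gene that is read on the same strand. The capitals mark the stop codon of that upstream gene, which is VAC14 for REH1, SLD3 for TAF6, NQM1 for YGR042W, SDH6 for RGA2, YMR209C for ERG12, ECM10 for BUD16 and MSS1 for UBC7. The lines come from chrXII:896256-896290 (plus), chrVII:297924-297958 (plus), chrVII:580415-580449 (minus), chrIV:1233258-1233292 (minus), chrXIII:685891-685925 (minus), chrV:96564-96598 (plus) and chrXIII:319417-319451 (minus).
REH1: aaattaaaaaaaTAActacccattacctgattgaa
TAF6: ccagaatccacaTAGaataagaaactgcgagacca
YGR042W: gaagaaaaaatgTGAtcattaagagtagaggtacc
RGA2: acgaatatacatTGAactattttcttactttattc
ERG12: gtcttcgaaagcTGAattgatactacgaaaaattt
BUD16: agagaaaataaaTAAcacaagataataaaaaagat
UBC7: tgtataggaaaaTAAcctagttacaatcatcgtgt

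Most members were of neither kind and began inside the coding region of the sense gene. Windows of this kind are shown, for the members opposite VPS3 and KIN2, with the largest rises in set2Δ, and opposite UBP7, which has a TATAAA 91 bases before its assembled 5′ end. Each runs 5′ to 3′ on the antisense strand from 250 bases before the assembled 5′ end, and the capitals mark the first 50 bases of the transcript. They are chrIV:1438427-1438726 (plus), chrXII:334421-334720 (minus) and chrIX:48788-49087 (minus), and all of these bases lie in the coding region.
VPS3: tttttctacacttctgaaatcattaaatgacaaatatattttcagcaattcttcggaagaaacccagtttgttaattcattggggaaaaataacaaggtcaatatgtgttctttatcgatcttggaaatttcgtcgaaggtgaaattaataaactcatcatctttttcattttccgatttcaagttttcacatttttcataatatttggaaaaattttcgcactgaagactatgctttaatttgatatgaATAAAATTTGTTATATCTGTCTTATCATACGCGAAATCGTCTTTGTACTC
KIN2: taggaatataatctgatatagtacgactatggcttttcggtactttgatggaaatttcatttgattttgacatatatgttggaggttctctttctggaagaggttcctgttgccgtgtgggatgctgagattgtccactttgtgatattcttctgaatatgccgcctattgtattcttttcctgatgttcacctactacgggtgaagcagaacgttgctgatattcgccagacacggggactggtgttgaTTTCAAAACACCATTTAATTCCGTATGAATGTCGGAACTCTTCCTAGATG
UBP7: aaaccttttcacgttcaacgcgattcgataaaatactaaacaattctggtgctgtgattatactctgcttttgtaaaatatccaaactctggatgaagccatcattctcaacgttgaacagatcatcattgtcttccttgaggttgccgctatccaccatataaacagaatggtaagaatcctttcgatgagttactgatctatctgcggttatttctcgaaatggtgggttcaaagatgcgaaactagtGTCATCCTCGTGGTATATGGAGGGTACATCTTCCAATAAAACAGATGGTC

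The 8 libraries behind the strain means held from 17157868 to 23268689 reads assigned to genes or antisense transcripts. They carry no labels of their own, so the 2 of a strain are called A, with the larger scaling factor, and B, and values below are given in that order. Listed antisense transcripts of all widths took 0.0665% and 0.0638% of these reads (WT), 0.439% and 0.458% (set2Δ), 0.208% and 0.226% (set2-Y149F) and 0.229% and 0.207% (set2-Y236F). SET2 itself stood at 29.5 and 28.7 FPKM (fragments scaled to transcript length and library size) in the WT, and the other strains had 0.0704 and 0.310 (set2Δ), 265 and 242 (set2-Y149F) and 256 and 286 (set2-Y236F), so both point mutants held more SET2 RNA than the WT. The spread between the libraries of a strain may be technical as well as between experiments, which these values cannot separate. In bulk RNA, fewer cells that make a transcript cannot be told from less of it per cell.

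Short antisense transcripts were rare RNAs in every strain. The median level of the WT was 0.504 FPKM, that of set2Δ 3.19, that of set2-Y149F 1.43 and that of set2-Y236F 1.44. These levels are per length of the transcript itself: the deposited values had been divided by the width of another transcript, and the correction changed the level of a short member by a factor of 0.512 to 8.45 (median 1.69) without changing ratios between strains. Behind these medians stood, over both libraries, 10 reads (WT), 64 (set2Δ), 34 (set2-Y149F) and 27.5 (set2-Y236F), and 1 read in a library of average depth was worth 0.127 FPKM for a 400-bp transcript. Below 1 FPKM were 158 members (WT), 1 (set2Δ), 65 (set2-Y149F) and 64 (set2-Y236F). The medians of the point mutants lay between those of the WT and set2Δ, a place that the choice of members as low in the WT and high in set2Δ on these libraries favours for any other strain. The highest strain mean was that of set2Δ for 174 members, of set2-Y236F for 14 and of set2-Y149F for 4, and the WT was lowest for 174. The median difference between both libraries of a strain was 0.198 (WT), 0.208 (set2Δ), 0.209 (set2-Y149F) and 0.262 (set2-Y236F), on the log2(FPKM + 1) scale on which all differences below are given.

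**Figure D1:**
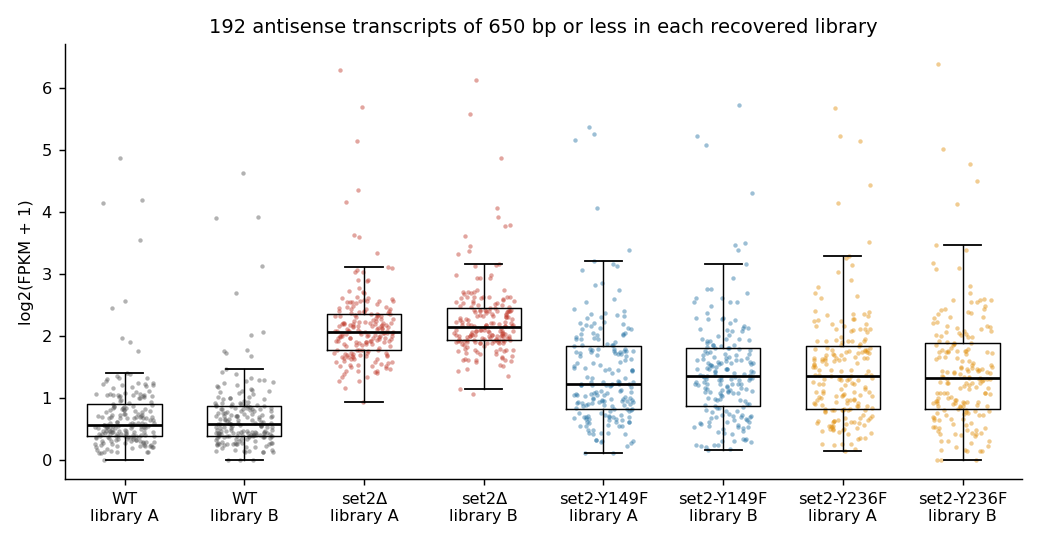
Level of each of the 192 short antisense transcripts in the 8 recovered libraries, as log2(FPKM + 1), with 2 libraries per strain. Points are transcripts, and the set2Δ libraries lie highest, the WT libraries lowest and those of both point mutants between them.

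The list was made by its authors from transcripts assembled in set2Δ and higher there on these same libraries, so the difference between set2Δ and the WT describes the members and is no independent evidence of its direction. The same choice favours levels above the WT and below set2Δ in the point mutants, and the counts below are read as descriptions of the members, not against the shares of all rows printed beside them. By limma, with p-values adjusted over all 7409 rows of the table, 190 of the 192 were higher in set2Δ than in the WT and 0 lower, beside 21.4% of all rows called higher and 16.8% called lower. At an unadjusted p under 0.05 these counts were 191 and 0, and with voom weights on the recovered reads 189 and 0. The median difference was 1.43, and 182 members differed at least 2-fold on this scale. The ratio of FPKM itself had a median of 6.75, and the fold on the log2(FPKM + 1) scale is smaller because most WT levels lie below the pseudocount. Both set2Δ libraries stood above both WT libraries for all 192, which the choice of members favours, and this order was not counted over all rows. Longer listed transcripts had a median difference of 1.70 and a median level of 4.19 FPKM in set2Δ.

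The largest differences were those of members opposite VPS3, KIN2, YGR125W, PLB2, AIM3 and DUO1. The transcript opposite VPS3, which encodes a vacuolar sorting protein, gave 0.432 and 0.264 FPKM (WT), 7.36 and 9.02 (set2Δ), 4.15 and 3.89 (set2-Y149F) and 2.77 and 3.13 (set2-Y236F). Its libraries did not overlap between any pair of strains, and the set2Δ difference was 2.77 ± 0.15 (SE, limma, adjusted p = 1.1e-05). The transcript opposite PLB2, a phospholipase B gene, gave 0.591 and 0.618 FPKM (WT), 6.48 and 9.91 (set2Δ), 6.25 and 5.73 (set2-Y149F) and 5.94 and 5.00 (set2-Y236F). Here the point mutants came close to the lower set2Δ library. The transcript opposite AIM3, a gene tied to actin patches, gave 0.299 and 0.487 FPKM (WT), 6.44 and 6.65 (set2Δ), 4.84 and 5.10 (set2-Y149F) and 5.27 and 3.94 (set2-Y236F). That opposite DUO1, a subunit gene of the kinetochore DASH complex, gave 0.729 and 1.45 FPKM (WT), 9.12 and 9.37 (set2Δ), 4.09 and 5.11 (set2-Y149F) and 4.01 and 3.24 (set2-Y236F). Both set2Δ libraries were the highest for each of these 4 members.

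The 2 members that did not pass the test were those opposite UBC7 and MET1. The transcript opposite UBC7, which encodes a ubiquitin-conjugating enzyme of protein degradation at the endoplasmic reticulum, gave 2.72 and 3.02 FPKM (WT) and 3.48 and 4.28 (set2Δ) (difference 0.33, limma, adjusted p = 0.124). It held 3.09 and 3.49 FPKM (set2-Y149F) and 4.26 and 3.37 (set2-Y236F), and its 5′ end lay 3 bases past the coding end of MSS1. The transcript opposite MET1, a gene of siroheme synthesis, gave 0.161 and 0.394 FPKM (WT) and 0.898 and 1.09 (set2Δ) (difference 0.65, limma, adjusted p = 0.062). It shared 412 of its 576 bp with a longer listed transcript of 801 bp opposite the same gene.

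**Figure D2:**
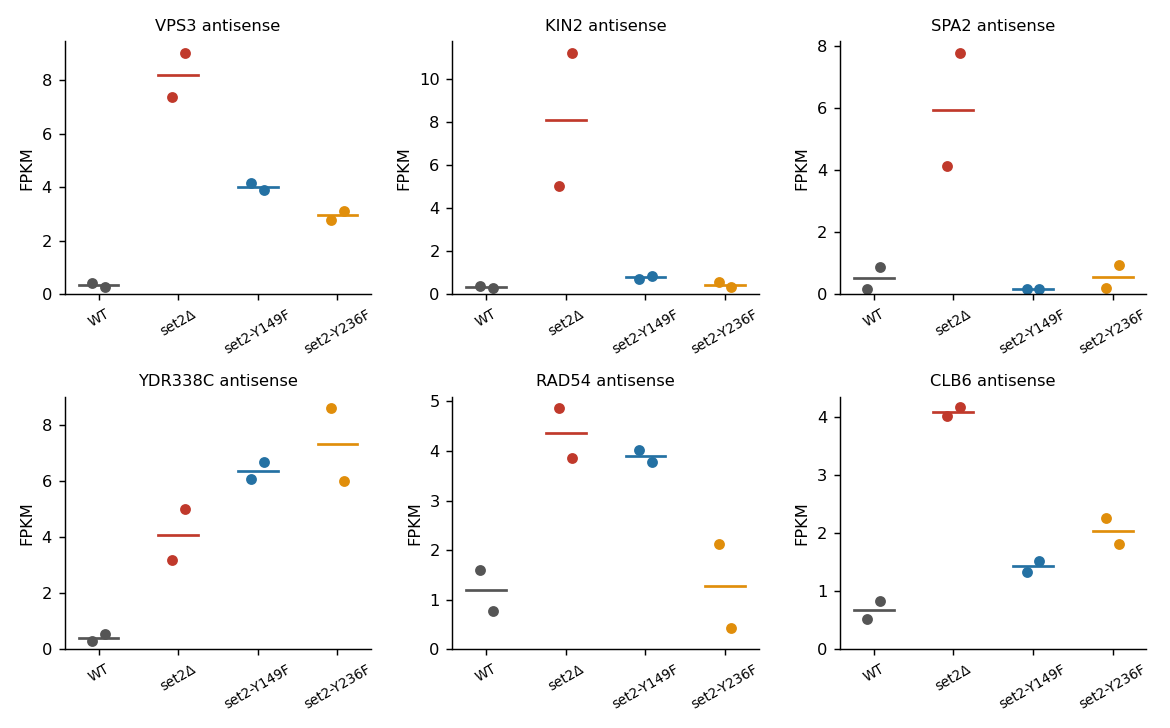
FPKM of the short antisense transcripts opposite VPS3, KIN2, SPA2, YDR338C, RAD54 and CLB6 in each library (points) with the strain mean (line), on linear axes that start at 0. VPS3 antisense lies between the WT and set2Δ in both point mutants, KIN2 and SPA2 antisense stay near the WT there, and YDR338C antisense is highest in set2-Y236F.

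In set2-Y149F, 106 of the 192 short transcripts were higher than in the WT and 0 lower by limma, beside 23.8% of all rows called higher and 21.4% called lower, with a median difference of 0.68. In set2-Y236F, 97 were higher and 0 lower, beside 21.5% called higher and 20.2% called lower over all rows, with a median of 0.65. At an unadjusted p under 0.05 the counts were 120 and 117 higher, and 101 and 88 with voom weights, with 0 lower in each case. The median over the annotated genes was −0.04 in set2-Y149F and −0.02 in set2-Y236F. At least 2-fold higher were 47 members (set2-Y149F) and 57 (set2-Y236F). These counts depend on the pseudocount, being 122 and 127 with 0.1 and 1 and 2 with 10. Both libraries of the mutant stood above both WT libraries for all but 43 members (set2-Y149F) and 40 members (set2-Y236F). This order was not counted over all rows, so it describes the members only. Both comparisons use the same WT libraries. Side by side, 86 members passed in both point mutants, 20 in set2-Y149F alone, 11 in set2-Y236F alone and 75 in neither, and no difference between mutants is read from these counts.

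Against set2Δ, 111 members were lower in set2-Y149F and 112 in set2-Y236F by limma, beside 19.8% and 21.2% of all rows higher in set2Δ than in the respective point mutant. No member was higher in set2-Y149F than in set2Δ, beside 14.5% of all rows (3 at an unadjusted p under 0.05 and 0 with voom weights), and 4 members were higher in set2-Y236F than in set2Δ, beside 14.5% again. These were the transcripts opposite YGR042W, YDR338C, VNX1 and BUD16, and 2 members were called in that direction with voom weights. In all, 94 members were lower than set2Δ in both point mutants. These libraries of set2Δ chose the members, which favours values below it.

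Expressed as a share of the rise from the WT to set2Δ, in FPKM, over the 191 members whose rise was at least 1 FPKM, the median was 36.8% in set2-Y149F (quartiles 14.1% and 56.1%) and 34.8% in set2-Y236F (14.0% and 63.3%). For listed transcripts of over 650 and under 1200 bp the medians were 29.5% and 29.9%, and for those of 1200 bp or more 27.4% and 28.2%. These shares were not tested between width classes, and the short class had fewer reads behind each value. Within the short class both shares were below 10% for 20 members and above 100% for 10.

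Among the members that stayed near the WT in both point mutants was the transcript opposite KIN2, a protein kinase gene of polarized exocytosis. It gave 0.377 and 0.307 FPKM (WT), 5.03 and 11.2 (set2Δ), 0.690 and 0.865 (set2-Y149F) and 0.553 and 0.331 (set2-Y236F). The set2Δ difference was 2.68 ± 0.30 (limma, adjusted p = 0.00024), while the point-mutant differences of 0.40 (set2-Y149F) and 0.10 (set2-Y236F) did not pass (adjusted p = 0.30 and 0.81), and both set2Δ libraries stood well apart from each other. The transcript opposite SPA2, a scaffold of the polarisome at the bud tip, gave 0.177 and 0.863 FPKM (WT), 4.13 and 7.78 (set2Δ), 0.162 and 0.174 (set2-Y149F) and 0.195 and 0.932 (set2-Y236F). One library of set2-Y236F lay just above the higher WT library, and the other 3 point-mutant libraries lay within the WT range or just below it. The transcript opposite DOP1, a gene of membrane traffic between endosomes and Golgi, gave 0.312 and 0.286 FPKM (WT), 2.78 and 3.97 (set2Δ), 0.215 and 0.384 (set2-Y149F) and 0.258 and 0.206 (set2-Y236F). That opposite PDS5, a cohesin cofactor, gave 0.616 and 0.452 FPKM (WT), 4.53 and 5.15 (set2Δ), 0.451 and 0.971 (set2-Y149F) and 0.407 and 0.325 (set2-Y236F). The other members with both shares below 10% included those opposite SKI8, DAL81, SAP190 and ADP1, and for each member named here the set2Δ libraries lay above all 6 others.

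At the other end were members whose point-mutant level reached that of set2Δ. The transcript opposite RAD26, a gene of transcription-coupled repair, gave 1.06 and 0.924 FPKM (WT), 7.66 and 6.92 (set2Δ), 7.97 and 7.90 (set2-Y149F) and 7.83 and 7.48 (set2-Y236F). Its 6 mutant libraries lay close together, with differences from the WT of 2.06, 2.17 and 2.12 (SE 0.12 each). The transcript opposite YDR338C, an uncharacterized transporter-like gene, gave 0.294 and 0.539 FPKM (WT), 3.19 and 4.98 (set2Δ), 6.06 and 6.66 (set2-Y149F) and 8.58 and 6.01 (set2-Y236F). All 4 point-mutant libraries exceeded both set2Δ libraries, and set2-Y236F was above set2Δ by 0.71 ± 0.22 (limma, adjusted p = 0.035). The transcript opposite ARA2, an arabinose dehydrogenase gene, gave 1.35 and 1.30 FPKM (WT), 4.29 and 4.36 (set2Δ), 5.65 and 5.79 (set2-Y149F) and 4.25 and 4.58 (set2-Y236F). That opposite VNX1, a vacuolar cation/H+ exchanger gene, gave 0.623 and 0.761 FPKM (WT), 2.08 and 2.82 (set2Δ), 2.61 and 3.24 (set2-Y149F) and 3.82 and 5.05 (set2-Y236F). The remaining members with both shares above 100% were those opposite YGR042W, RGA2, PKP2, RSN1, NAM8 and RIM13.

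**Figure D3:**
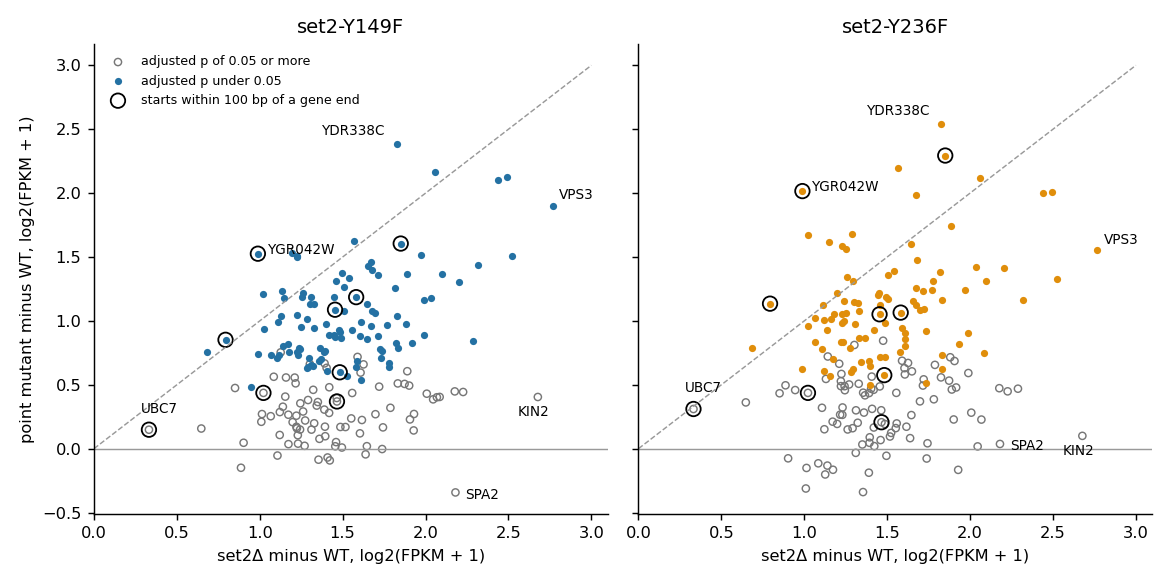
Difference of each point mutant from the WT against that of set2Δ from the WT, in log2(FPKM + 1), with 1 point per short transcript, filled where the point mutant passed at an adjusted p under 0.05, ringed where the transcript starts within 100 bp of a gene end, and a dashed line where both differences are equal. Most points lie below the line in both panels, YDR338C and YGR042W lie above it, and KIN2 and SPA2 lie low in both panels for their set2Δ difference. All differences share the WT libraries.

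The direct comparison of both point mutants gave a median difference of −0.02 (set2-Y149F minus set2-Y236F). An unadjusted p under 0.05 by limma was found for 24 of the 192, beside 1704 of the 6632 annotated rows, a larger share. After adjustment 1 of the 192 passed, the transcript of 419 bp opposite BUD16, beside 2.12% of all rows called higher in set2-Y149F and 0.877% called lower. BUD16 encodes a pyridoxal kinase, and this transcript gave 2.88 and 2.30 FPKM (WT), 11.1 and 12.8 (set2Δ), 9.44 and 10.4 (set2-Y149F) and 16.6 and 16.5 (set2-Y236F). The set2-Y236F libraries were the highest, and the difference was −0.69 ± 0.12 (adjusted p = 0.042), a call that was lost when any 1 of 7 of the 8 libraries was left out. The only 2-fold difference between the point mutants was that opposite RAD54, a recombination gene, at 4.01 and 3.79 FPKM (set2-Y149F) and 2.12 and 0.423 (set2-Y236F). It gave 1.60 and 0.783 FPKM (WT) and 4.87 and 3.86 (set2Δ), and the difference of 1.22 ± 0.34 did not pass (limma, adjusted p = 0.093).

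Short members that began at the end of an annotated gene read in the same direction formed the top of the set by level. A 5′ end within 100 bp past such a gene was found for 4.69% of short members. The shares were 1.38% for listed transcripts of over 650 and under 1200 bp and 4.57% for those of 1200 bp or more. The 9 short members lay opposite REH1, TAF6, YGR042W, RGA2, ERG12, SNF8, BUD16, LPL1 and UBC7, and 1 to 63 bases separated them from the upstream gene. They filled ranks 1 to 7 of the 192 in set2Δ, with LPL1 at rank 43 and UBC7 at rank 67, and 8 of the 10 highest places in the WT. Their median WT level was 5.21 FPKM and their median set2Δ level 16.4, against 0.493 and 3.14 for the other 183. Their median shares of the rise were 63.8% in set2-Y149F and 62.6% in set2-Y236F, against 36.2% and 33.3%. This grouping was made after the levels were seen and is given with no test. The annotation ends most yeast genes at the stop codon, so reads of an upstream mRNA that runs past it and reads of a separate antisense RNA cannot be told apart in these values.

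The levels of the upstream genes are therefore given beside those of the antisense transcripts. YGR042W, also called MTE1, encodes a factor of DNA repair, and the transcript opposite it gave 16.8 and 13.9 FPKM (WT), 34.5 and 28.5 (set2Δ), 40.7 and 51.8 (set2-Y149F) and 50.6 and 83.2 (set2-Y236F). The upstream gene NQM1, a transaldolase gene, had mean levels of 63.5, 144, 243 and 251 FPKM in these strains, in the same order. The antisense level was thus 24.2%, 21.8%, 19.0% and 26.7% of that of NQM1, and both rose from strain to strain together. The transcript opposite RGA2, a gene for a GTPase-activating protein of Cdc42, gave 10.7 and 7.77 FPKM (WT), 19.4 and 14.1 (set2Δ), 15.8 and 18.8 (set2-Y149F) and 20.7 and 21.7 (set2-Y236F). It was 12.6%, 14.0%, 11.9% and 15.2% of the level of SDH6, an assembly factor gene of succinate dehydrogenase, whose means were 73.0, 120, 146 and 140 FPKM.

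The transcript opposite REH1, a gene of 60S ribosome assembly, did not keep such a ratio. It gave 28.3 and 23.9 FPKM (WT), 77.7 and 69.5 (set2Δ), 34.7 and 33.0 (set2-Y149F) and 34.4 and 26.4 (set2-Y236F), the highest level of any short member in set2Δ. The upstream gene VAC14, a regulator of vacuolar phosphoinositide synthesis, had means of 21.4, 29.9, 19.8 and 18.7 FPKM, so the antisense level was 121%, 246%, 171% and 163% of it. The transcript opposite TAF6, which encodes a subunit of TFIID and SAGA, gave 17.4 and 14.1 FPKM (WT), 51.1 and 46.8 (set2Δ), 37.2 and 36.7 (set2-Y149F) and 36.5 and 31.5 (set2-Y236F). SLD3, a replication initiation gene before it, had means of 15.8, 31.6, 26.9 and 25.4 FPKM, so the antisense level was 99.6%, 155%, 137% and 134% of it, highest against SLD3 in set2Δ. The shortest member of all, 207 bp opposite the mevalonate kinase gene ERG12, gave 4.94 and 5.48 FPKM (WT), 17.0 and 15.7 (set2Δ), 7.40 and 9.50 (set2-Y149F) and 7.17 and 9.47 (set2-Y236F). Means of YMR209C, which ends 3 bases before it, were 16.1, 17.1, 15.1 and 16.8 FPKM, and set2Δ did not differ from the WT there by the test (limma, difference 0.08, adjusted p = 0.517).

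**Figure D4:**
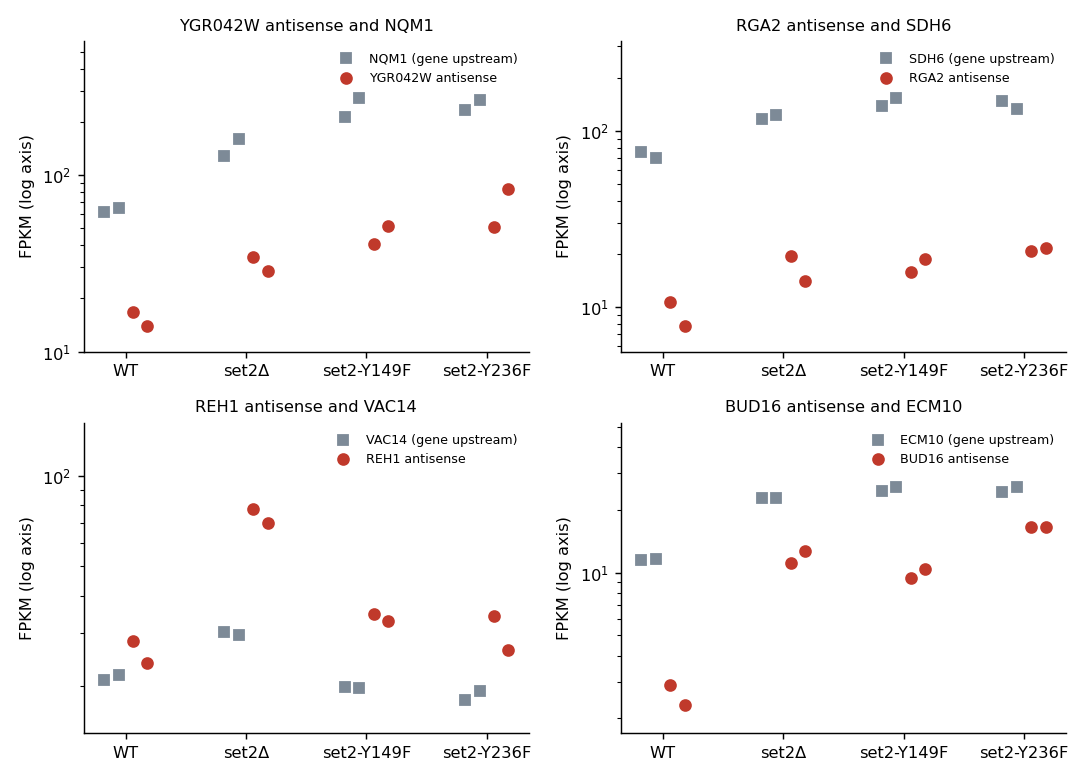
FPKM on a log axis of short antisense transcripts that begin just past a same-strand gene, and of that upstream gene, with 2 library values per strain and 4 such pairs. YGR042W antisense follows NQM1 at 19.0% to 26.7% of its level, while REH1 antisense lies above VAC14 in every strain, from 121% in the WT to 246% in set2Δ.

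Of the 192 short transcripts, 28 (14.6%) had another listed transcript on the same strand within 100 bp or overlapping it, beside 15.1% of those of over 650 and under 1200 bp and 8.64% of those of 1200 bp or more. A gap of 6 to 75 bp separated 22 of them from the neighbour, with a median of 13.5 bp, and 15 had a gap of 20 bp or less. The neighbour lay opposite the same sense gene in 21 cases. All 22 spans exceeded 650 bp once both pieces were joined, so their place in the short class rests on where the assembly ended. In 8 of the 22 the neighbour was short too, so these pairs are counted from both sides. In set2Δ the FPKM of member and neighbour lay within 2-fold of each other in all 22, with a median fold of 1.25 and a largest of 1.79. Levels in set2Δ were close together in general, with quartiles of 2.67 and 4.21 FPKM for short and 3.14 and 5.95 for longer listed transcripts. Unrelated pairs were not compared, so nothing particular to neighbours is read from these folds. For APP1, a phosphatidate phosphatase gene, pieces of 613 and 415 bp that were 6 bp apart stood at 3.91 and 3.77 FPKM in set2Δ. For RIF1, a telomere length regulator, pieces of 606 and 517 bp that were 11 bp apart stood at 3.82 and 2.92 FPKM. The short piece opposite PLB2 ended 8 bp before a piece of 1840 bp, at 8.19 and 13.2 FPKM. The remaining 6 overlapped a listed neighbour, by 412 bp for MET1, 163 for PPH22, 115 for FRK1, 101 for DUR3, 77 for PRI1 and 26 for FRS2, and share reads or bases with it.

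Within the sense gene, the assembled 5′ end of a short transcript lay at a median of 64.3% of the coding region counted from the start codon (quartiles 30.9% and 92.7%), and its 3′ end at 33.8%. The 5′ end was inside the coding region for 169 members and past the stop codon for 23. With the coding region cut into 4 equal stretches from the start codon on, these held 38, 39, 33 and 59 of the 5′ ends. The 3′ end passed the start codon for 47. Wholly inside the coding region lay 122 members (63.5%), against 57.0% of listed transcripts of over 650 and under 1200 bp and 26.9% of those of 1200 bp or more. The median share of the sense coding region covered was 21.3%, and 179 members covered less than 50% of it. A shorter transcript has more room inside a gene, so the width rule itself bears on these shares.

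**Figure D5:**
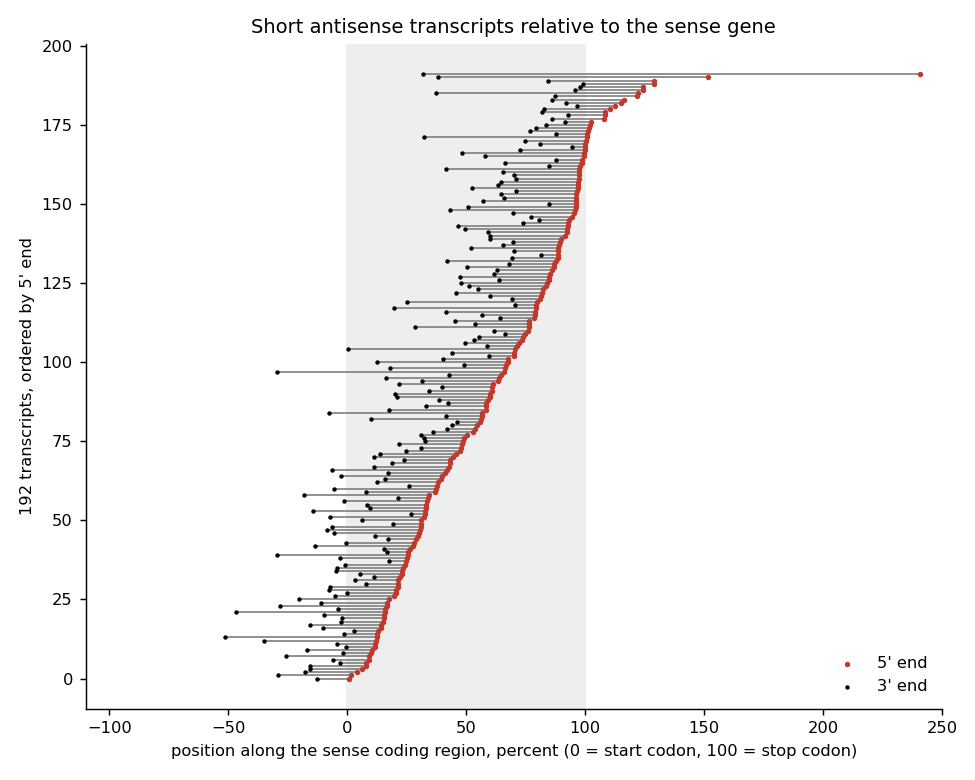
Extent of each of the 192 short antisense transcripts along its sense coding region, in percent, with the start codon at 0 and the stop codon at 100, ordered by 5′ end, with 5′ and 3′ ends marked and the coding region shaded. The 5′ ends spread over the whole coding region with a median of 64.3%, and 23 lie past the stop codon.

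Few members shared a sense gene. There were 7 genes with 2 short antisense transcripts (BUD16, HCM1, TGS1, CIR2, APP1, RIM13 and RIF1), 41 short members lay opposite a gene that also had a longer listed transcript, and 139 of the 185 genes had a single listed transcript in all. Opposite HCM1, a forkhead transcription factor gene of S phase, the transcript of 378 bp gave 0.738 and 0.150 FPKM (WT) and 3.56 and 3.05 (set2Δ). The other, of 516 bp, gave 0.270 and 0.440 FPKM (WT) and 3.31 and 2.03 (set2Δ). A distance of 936 bp separated them, and the choice of members fixes that both were higher in set2Δ. The transcript opposite TUB3, an alpha-tubulin gene, was the only one that overlapped an annotated gene on its own strand, by 397 of its 450 bp with the noncoding RNA gene YNCM0001W. It gave 0.620 and 0.631 FPKM (WT) and 3.68 and 1.75 (set2Δ).

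In the main window, starts of short transcripts held promoter-type motifs about as often as those of longer listed transcripts. The TATA box, the A run and the Reb1 motif were in a larger share of windows at coding genes, with no test made. In the window from 250 bases before to 50 after the assembled 5′ end, searched on both strands, TATAAA was in 34.4% of the 192 windows (95% exact binomial interval 27.7% to 41.6%), in 32.0% of the 585 windows of longer listed transcripts and in 45.2% of 6001 windows of the same length around the starts of protein-coding genes, which here are their start codons. AAAAAAA was in 28.6%, 27.7% and 49.9%, and CGGGTAA, the core of the Reb1 motif, in 2.1%, 3.4% and 7.1%. AGGGG, the stress response element bound by Msn2 and Msn4, was in 23.4%, 19.7% and 21.6%, and TGACTCA, bound by Gcn4, in 3.6%, 2.7% and 2.7%. The Abf1 motif was in 2.1%, 2.6% and 1.7%. In the last 100 bases, AATAAA was in 10.4% of the short and 10.3% of the longer transcripts, and TATATA in 9.4% and 13.2%. The median GC content of the windows was 37.7% for short and longer transcripts alike and 36.0% around gene starts. A match is only a match of letters.

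The sense genes of the short transcripts were spread over many functions, and 77 of the 185 were in at least 1 of 11 lists of gene functions. These lists do not hold every gene of a function, and the counts below are those of listed genes only. Every listed member passed the test in set2Δ, beside 21.4% of all rows, which the choice of the transcripts fixes. The counts that passed in the point mutants stand beside 55.2% (set2-Y149F) and 50.5% (set2-Y236F) of all 192 short transcripts and 23.8% and 21.5% of all rows, and nothing particular to a list is read from 3 to 12 members. Opposite genes of vesicle traffic and the vacuole lay 12 short transcripts (among them VPS3, DOP1, PEP3, VPS41, COG4 and SEC8) with a median set2Δ difference of 1.62, of which 5 passed in set2-Y149F and 4 in set2-Y236F. Opposite genes of kinases and phosphatases lay 10 (KIN2, TOR1, PPH22, KIN4, PSK1, CDC28, PBS2, BCK1, MKK2 and PPH21) with a median of 1.31, of which 7 and 6 passed. Opposite genes of mitosis and the cell cycle lay 9 (among them DUO1, PDS5, MCD1, CLN1, CLB6 and BUB2) with a median of 1.61, of which 7 and 6 passed. Transporter genes had 9 with a median of 1.31, of which 6 and 5 passed, and genes of DNA replication and repair 8 with a median of 1.41, of which 3 and 1 passed. Outside the repair list, the members opposite YGR042W and DIN7 passed in both point mutants, and that opposite EXO5 in neither. Outside the kinase list, the member opposite PKP2 passed in both and that opposite ALK1 in set2-Y236F alone.

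Genes of the bud site, cytoskeleton and septum had 7 short transcripts with a median set2Δ difference of 1.54, and 5 passed in each point mutant, again beside 55.2% and 50.5% of all short transcripts. Ubiquitin and proteolysis genes had 6 (1.52, of which 3 and 1 passed), cell wall genes 5 (1.46, of which 4 and 4 passed), RNA processing genes 5 (1.46, of which 2 and 2 passed) and lipid genes 4 (1.65, of which 2 and 2 passed). The list of transcription and chromatin genes had only 3, those opposite DAL81, SWI1 and FHL1, with a median of 1.55 in set2Δ. By limma, 0 of these 3 passed in either point mutant, with or without voom weights, and 0 of 3 at an unadjusted p under 0.05. That list is not complete. Members opposite TAF6, PPR1 and SRB5, other genes of transcription, passed in both point mutants, and the 378-bp member opposite HCM1 passed in neither. The transcript opposite DAL81, a regulator of nitrogen catabolism genes, gave 0.369 and 0.360 FPKM (WT), 3.12 and 3.25 (set2Δ), 0.608 and 0.581 (set2-Y149F) and 0.406 and 0.681 (set2-Y236F). That opposite SWI1, a subunit gene of the SWI/SNF remodeller, gave 0.348 and 0.283 FPKM (WT), 2.97 and 2.75 (set2Δ), 0.955 and 0.228 (set2-Y149F) and 0.128 and 0.917 (set2-Y236F). For both genes the point-mutant libraries lay far below the set2Δ libraries.

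Genes of the cell cycle engine had short antisense transcripts in several places. Opposite CDC28, the cyclin-dependent kinase gene, the transcript gave 0.739 and 0.361 FPKM (WT), 2.80 and 2.75 (set2Δ), 1.08 and 2.04 (set2-Y149F) and 1.38 and 1.36 (set2-Y236F). Opposite CLN1, a G1 cyclin gene, it gave 0.456 and 0.556 FPKM (WT), 3.97 and 4.29 (set2Δ), 1.39 and 2.62 (set2-Y149F) and 2.51 and 2.60 (set2-Y236F). Opposite MCD1, a cohesin subunit gene, it gave 1.29 and 1.09 FPKM (WT), 6.41 and 6.62 (set2Δ), 3.09 and 1.95 (set2-Y149F) and 4.05 and 4.84 (set2-Y236F). All 3 passed the limma test in each mutant, and their point-mutant libraries lay between those of the WT and set2Δ. There were 5 members opposite Ty1 gag-pol genes (YPR137C-B, YDR210C-D, YGR038C-B, YDR098C-B and YER160C), with means of 0.351 to 1.11 FPKM (WT), 1.75 to 3.67 (set2Δ), 0.646 to 2.36 (set2-Y149F) and 0.213 to 0.997 (set2-Y236F). The set2-Y149F mean was above the WT mean for all 5, and the set2-Y236F mean was below it for all 5. By limma none of the 5 was called below the WT in set2-Y236F. The set2-Y149F differences of YPR137C-B and YDR210C-D did not pass (limma, adjusted p = 0.106 and 0.326). Ty1 copies are nearly identical, so how their reads were shared among copies is uncertain, and the 5 may not be separate observations. No difference between the point mutants is read from them.

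The sense mRNAs of these genes stood far above their short antisense transcripts and mostly changed less than 2-fold. The median sense level was 33.7 FPKM (WT) and 31.7 FPKM (set2Δ), and antisense levels had a median of 1.53% of the sense level (WT) and 11.1% (set2Δ). By limma, 20 of the 185 sense genes were higher and 29 lower in set2Δ, shares of 10.8% and 15.7%, beside 12.3% and 18.8% of annotated genes. In set2-Y149F 27 were higher (14.6%, beside 18.8% of annotated genes) and 63 lower (34.1%, beside 23.9%). In set2-Y236F 16 were higher (8.65%, beside 16.5%) and 60 lower (32.4%, beside 22.5%). Between the point mutants 1 was higher and 1 lower, 0.541% each, beside 2.37% and 0.935% of annotated genes. On the log2(FPKM + 1) scale, none of the 185 differed 2-fold in set2Δ, and 8 did in a point mutant. Of these 8, MUP3, GYP7 and YER158C were higher and CLN1, PLB2, YHM2, YJL181W and BUD16 lower. In FPKM itself, with no pseudocount, CLB6 mRNA fell from a mean of 2.99 (WT) to 1.46 (set2Δ). The study lists CLB6 among the sense genes downregulated in set2Δ. Across the 192 members the set2Δ differences of antisense and sense had a Spearman correlation of −0.04, given as a description over members that share libraries.

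MUP3, a low-affinity methionine permease gene, gave 11.5 and 11.1 FPKM (WT), 13.5 and 21.2 (set2Δ), 26.3 and 24.1 (set2-Y149F) and 36.8 and 35.0 (set2-Y236F), and its antisense transcript rose as well, from a mean of 0.889 to 4.17 FPKM in set2Δ. PLB2 gave 43.5 and 57.3 FPKM (WT), 35.1 and 21.4 (set2Δ), 15.6 and 16.6 (set2-Y149F) and 14.7 and 14.6 (set2-Y236F). GYP7, a Rab GTPase-activating protein gene, gave 81.5 and 77.5 FPKM (WT), 60.0 and 81.4 (set2Δ), 184 and 205 (set2-Y149F) and 157 and 188 (set2-Y236F). Sense and antisense thus moved the same way for MUP3 and opposite ways for PLB2. CLB6, an S-phase cyclin gene, was the only sense gene below its short antisense transcript in set2Δ. Its mRNA gave 2.85 and 3.13 FPKM (WT) and 1.72 and 1.19 (set2Δ), against antisense levels of 0.515 and 0.838 FPKM (WT) and 4.01 and 4.16 (set2Δ). In set2-Y149F the mRNA stood at 1.86 and 1.28 FPKM and the antisense at 1.33 and 1.52, and in set2-Y236F at 1.39 and 1.55 FPKM against 2.27 and 1.81. The CLB6 mRNA difference was −0.71 ± 0.18 in set2Δ (limma, adjusted p = 0.016).

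The limit of 650 bp falls in a continuous range of widths. The members just inside it lay opposite KAP104 (647 bp), HUL4 (648 bp) and FRK1 (648 bp), with set2Δ means of 5.24, 1.97 and 1.85 FPKM. Those just outside lay opposite GPI1 (654 bp), SOK2 (655 bp) and COS111 (656 bp), with set2Δ means of 4.31, 3.14 and 2.86 FPKM.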

How the data were processed

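Polyadenylated RNA of 4 yeast strains was sequenced by the study in 12 listed libraries, 3 per strain. The authors trimmed reads (Trimmomatic 0.38), aligned them to sacCer3 (TopHat2 2.1.1), removed reads of annotated transcripts on their own strand (SAMtools 1.10, bedtools 2.29.2) and assembled the remaining set2Δ reads without annotation (Cufflinks 2.2.1). The submitters' processing notes also name HTSeq 0.13.5 and Cuffdiff, and which program gave the deposited FPKM is not stated in the sources used here. The deposited values are FPKM, as 1 mean per strain from counts scaled by size factors, together with a mean scaled signal per row and the coordinates of each transcript.

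The FPKM means of every strain split into whole reads of 2 libraries for 100% of values (relative error under 1e-13), and these library values were used. The antisense rows follow the alphabetical order of the names, and each deposited value had been divided by the width of the name printed in its row (777 of 777 within 0.01 bp), so values were rescaled to the true width. Columns of the authors' own comparisons hold fold changes and p-values and were not used, nor were the lists of both point mutants. No per-sample columns were left unmapped.

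Differences were tested with limma 3.58.1 (R 4.3.3, trend, 4 residual degrees of freedom) on log2(FPKM + 1) over 7409 rows of 8 libraries, with no filter, Benjamini-Hochberg adjustment and a call at an adjusted p under 0.05. The design had foreseen strain means only, so limma was added once the library values were found, and the fits were tested on simulated data. The paper states that antisense levels were compared from independent experiments. Which of the listed libraries were recovered is not known, and separate cultures are not named in the sources. The p-values thus measure the spread between these recovered libraries. Members and gene lists were chosen with earlier results of these data known. Named members were, by rule, those with the largest and smallest set2Δ differences, the highest levels, the largest differences between point mutants, the highest and lowest shares of the rise, sense genes with 2-fold changes, the smallest gaps, the shortest and the widest, genes named in the study, the leading members of each list and genes with 2 short transcripts. The gene-end and gap groups were formed after the values were seen. Sequences and gene models are those of RefSeq for the sacCer3 assembly, in which 774 of 777 sense genes were found, and their sequences were read in that build. Intervals are exact binomial and cover counting error only. Alternatives were other pseudocounts, filters, thresholds, widths, scalings, row orders, motif windows, voom weights and leaving out each library.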

Additional observations from a re-analysis of the deposited data

Results flagged for a closer look

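The transcript of 419 bp opposite BUD16 stands out because the effects of both point mutants on it, each against the same WT libraries, differed by limma (set2-Y149F minus set2-Y236F, −0.69 ± 0.12, adjusted p = 0.042). It was lower in both set2-Y149F libraries than in both set2-Y236F libraries. The call was lost on leaving out any library except library A of set2-Y236F, and with voom weights. This transcript starts 6 bases past the coding end of ECM10, a mitochondrial Hsp70 gene read on the same strand, whose means were 11.6 FPKM (WT), 22.7 (set2Δ), 25.3 (set2-Y149F) and 25.2 (set2-Y236F). The part of ECM10 reads in the antisense value was not tested.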

How the results depend on the processing

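No paired analysis was possible because the recovered libraries carry no replicate number. Of 99 values under other settings, 68 stayed close to the main value, which for a count means within 1.5-fold of it. On the 2-fold counts, the main values for set2Δ, set2-Y149F and set2-Y236F against the WT and for set2-Y149F against set2-Y236F were 182, 47, 57 and 1. A pseudocount of 10 gave 2, 1, 2 and 0, and one of 0.1 gave 122 and 127 for the point mutants and 16 between them. A 1.5-fold threshold gave 111, 105 and 10 for these 3 comparisons. Division by the deposited width gave 114, 26, 32 and 0. A limit of 500 bp gave 73, 23 and 28 of 75 members against the WT, and one of 800 bp gave 319, 75 and 94 of 338. Names taken in printed order moved set2-Y149F to 89, set2-Y236F to 84, and gave 0 between the point mutants and a median share of the rise, averaged over both point mutants, of 28.0% in place of 33.0%. The single limma call between the point mutants became 0 with voom weights and 0 without Ty1, overlapping and gene-end members, where 172 members were left. Sense genes with a 2-fold difference numbered 8, or 4 with a pseudocount of 10, 3 for members up to 500 bp and 33 at 1.5-fold. In windows from 150 bases before the 5′ end, TATAAA fell to 27.1%, AAAAAAA to 15.1% and AGGGG to 14.6%, the windows being shorter. Leaving out each library in turn, where the lone library of a strain is assumed to vary like the others, gave 2-fold counts of 166 to 182 in set2Δ, 47 to 51 in set2-Y149F, 53 to 60 in set2-Y236F and 0 to 3 between the point mutants, with 6 to 10 sense genes and a share of 32.1% to 37.0%. The limma calls ranged from 172 to 191 for set2Δ, 71 to 109 for set2-Y149F and 72 to 95 for set2-Y236F against the WT, 79 to 120 and 77 to 115 for set2Δ against set2-Y149F and set2-Y236F, and 0 to 2 between the point mutants. A median of 10 reads per member in the WT limits what can be said of WT levels, and medium and plasmid cannot be told apart from the strain.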

Other observations

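Neighbouring pieces opposite the same gene did not keep 1 ratio in every strain. Opposite PBS2, a MAP kinase kinase gene of the osmotic stress pathway, pieces of 383 and 1001 bp that lie 35 bp apart stood at 2.73 and 3.31 FPKM in set2Δ, at 2.48 and 1.30 in set2-Y149F, and at 3.68 and 1.41 in set2-Y236F. Opposite GAS5, a cell wall glucanosyltransferase gene, pieces of 575 and 904 bp that lie 7 bp apart stood at 4.36 and 5.57 FPKM in set2Δ, at 0.654 and 1.79 in set2-Y149F, and at 1.41 and 1.95 in set2-Y236F, so that the ratio in set2-Y236F was near that in set2Δ. Opposite DUR3, a urea and polyamine transporter gene, pieces of 607 and 1279 bp that overlap by 101 bp stood at 4.94 and 5.44 FPKM in set2Δ, at 3.36 and 6.73 in set2-Y149F, and at 2.63 and 6.66 in set2-Y236F. These differences between pieces were not tested.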
